A study of Mus musculus with 8 samples.

Results

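Oxidative phosphorylation subunits are the nuclear-encoded proteins of the mitochondrial respiratory chain and the ATP synthase. They were followed in whole mouse kidney as genes chosen by symbol, with 80 or more counts summed over the 8 libraries. Symbols had to begin with Nduf, a series letter (A, B, C, S or V) and a digit, or with Uqcr or Atp5. Those beginning with Cox4 to Cox8, and Sdha to Sdhd and Cyc1, were taken too. Ndufs5 was left out by name. Of 95 matching symbols, 80 genes met this rule, out of 37583 gene identifiers in all, and 14 fell under the count minimum. The members were 36 genes of complex I, 4 of complex II, 9 of complex III, 15 of complex IV and 16 of complex V. The rule used a summed count and no comparison between groups.

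The series measured RNA from whole kidneys in 4 libraries labelled knockout (KO1 to KO4) and 4 from control littermates labelled WT (WT1 to WT4), by RNA sequencing of total RNA. The knockout genotype is given as Six2Cre+TFAP2Afl/flTFAP2Bfl/WT: a Cre recombinase driven by Six2, a gene of nephron progenitors, with both alleles of Tfap2a and 1 allele of Tfap2b flanked by recombination sites. The Six2 lineage forms the nephron epithelium from podocyte to distal tubule, while collecting duct, vessels and stroma keep their alleles, so whole kidney RNA mixes cells in which the alleles could recombine with cells in which they could not. The genotype of the controls is given only as WT, no age, sex, litter or batch is given, and whether the libraries are separate animals is not stated, so a p-value here sets a difference against the spread among libraries, which may be technical.

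The respiratory chain moves electrons from NADH through complex I, or from succinate through complex II, to coenzyme Q, then through complex III and cytochrome c to complex IV, where oxygen is reduced. Complexes I, III and IV pump protons across the inner mitochondrial membrane, and complex V, the ATP synthase, lets them back and makes ATP. The kidney is rich in mitochondria because its tubules reabsorb salt against a gradient, above all in the proximal tubule, the thick ascending limb and the distal convoluted tubule, and nuclear genes for these subunits are known to share activators such as NRF1, GABP and the estrogen-related receptors.

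Gene counts totalled 13871861 to 16629301 per library. The targeted genes were not lower in the libraries labelled knockout. Tfap2a was at 5.05 ± 0.990 CPM (counts scaled to library size, mean ± SD, n = 4) against 4.22 ± 1.08 CPM in the WT libraries. Tfap2b was at 79.97 ± 20.3 against 78.3 ± 20.5 CPM. Counts per gene in whole kidney do not show whether the alleles recombined, so every direction below follows the label only. KO1 stood apart from the other 7 libraries in having the highest share of reads outside annotated genes (16.2% against 11.6% to 14.5%), the highest share without a unique place (20.9% against 15.8% to 18.4%) and the most RNA of red cell precursors, with Alas2 at 145 CPM and Hba-a1 at 1241 CPM against at most 35.8 and 259 CPM. KO2 and WT1 carried adrenal transcripts, with Star at 349.6 and 334.7 CPM against at most 6.15 CPM in the other 6 libraries.

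To set the regulatory context beside the values, promoter windows were taken from RefSeq (GRCm38.p6) as the 250 bases before each start, for 2 subunits used in most tissues and 2 isoforms restricted to few tissues, picked as examples after the motifs were searched. Atp5j, coupling factor 6 of the ATP synthase, and Cox6a1, the common isoform of a small complex IV subunit, are shown first, and then Cox7a1 and Cox8b, the complex IV isoforms of heart, skeletal muscle and brown fat. Capitals mark the NRF1 core CGCATGCG, the ETS motif CCGGAAG bound by GABP, and the YY1 motif AAGATGGC, searched on both strands, and the marked motifs do not overlap. The half-site AAGGTCA of the estrogen-related receptors was searched too.
Atp5j, chr16:84834977-84835226, minus strand: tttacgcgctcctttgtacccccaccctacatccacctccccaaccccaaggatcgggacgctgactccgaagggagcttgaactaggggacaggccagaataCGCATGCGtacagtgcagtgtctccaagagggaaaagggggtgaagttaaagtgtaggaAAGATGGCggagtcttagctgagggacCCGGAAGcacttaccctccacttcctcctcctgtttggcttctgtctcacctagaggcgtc
Cox6a1, chr5:115348959-115349208, minus strand: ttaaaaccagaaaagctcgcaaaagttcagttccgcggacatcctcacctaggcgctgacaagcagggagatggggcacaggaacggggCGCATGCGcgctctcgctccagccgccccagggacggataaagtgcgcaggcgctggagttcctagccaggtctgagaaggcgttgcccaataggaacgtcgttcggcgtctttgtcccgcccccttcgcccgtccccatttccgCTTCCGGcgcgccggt
Cox7a1, chr7:30183921-30184170, plus strand: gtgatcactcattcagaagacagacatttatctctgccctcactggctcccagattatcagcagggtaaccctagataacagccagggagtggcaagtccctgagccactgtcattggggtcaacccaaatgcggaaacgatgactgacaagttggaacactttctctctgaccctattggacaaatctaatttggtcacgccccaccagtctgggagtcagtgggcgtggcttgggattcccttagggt
Cox8b, chr7:140900447-140900696, minus strand: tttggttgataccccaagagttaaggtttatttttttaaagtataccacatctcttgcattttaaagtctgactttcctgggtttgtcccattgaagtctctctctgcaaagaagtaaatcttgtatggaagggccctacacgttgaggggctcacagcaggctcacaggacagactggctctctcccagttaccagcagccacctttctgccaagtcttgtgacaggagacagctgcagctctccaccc

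The Atp5j window held all of the first 3 motifs and the Cox6a1 window held the NRF1 core and, on the opposite strand, the ETS motif. A second window of Atp5j, from another start (chr16:84835626-84835875), held none of the 4, and neither did the Cox7a1 and Cox8b windows. Nor did those of Atp5b, Sdha, Cox5a and Cox7a2, which are used in most tissues, so the 4 printed windows are examples and show no contrast between kinds of subunit. Over the 300-base windows of the 26962 other genes, which add 50 bases after the start, the NRF1 core stood in 2.04%, the ETS motif in 9.89%, the YY1 motif in 3.16% and the half-site in 5.37%. Windows were found for 63 of the 80 members, which is 78.75% and under the 80% set for a comparison over the whole list. That comparison is therefore void, and no share over the members is drawn from it. A match says only that the letters are present.

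All 80 members passed the filter on low counts, among 14433 genes tested. Their summed counts were 2.47% to 3.22% of the TMM-scaled library size. Summed over the 80 genes, the level was 32191, 26260, 27134 and 25054 CPM in KO1 to KO4 and 27096, 24801, 25794 and 24742 CPM in WT1 to WT4. KO1 was the highest library, the other 7 lay between 24742 and 27134 CPM, and the groups overlapped. The knockout mean was 27660 ± 3139 CPM and the WT mean 25608 ± 1103 CPM, and without KO1 the knockout mean was 26149 ± 1044 CPM. In whole tissue, fewer cells of a type and less RNA per cell cannot be told apart in such sums.

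No member differed between the groups by edgeR's quasi-likelihood test with Benjamini-Hochberg adjustment over all genes. The count past an adjusted p of 0.05 was 0 of 80 members, and 0% of all tested genes passed. At an unadjusted p under 0.05 the count was also 0 of 80 by edgeR, by DESeq2 and by limma-voom. The share of all genes tested that were past it was 4.00% by edgeR, 2.91% by DESeq2 and 4.1% by limma-voom. The smallest unadjusted edgeR p of a member was 0.0590 (Cox6b2), with an adjusted p of 0.957. The log2 difference, knockout minus WT by label, ran from -0.08 to 0.60 over the members and was above 0 in 74 of 80, beside 51.3% of all tested genes. Its median was 0.15 over the members and 0.006 over all tested genes. The direction count rested on KO1: without that library 51 of 80 members were above 0, beside 48.8% of all genes then tested, and the median was 0.02. With any other single library left out, 73 to 76 members were above 0 and the median was 0.11 to 0.24. The count at an unadjusted p also moved with the libraries left out. In KO2 and KO4 the median of 4 heat-shock genes stood at 1.52 and 2.40 above its mean on the log2 scale. It was at or below -0.05 elsewhere. Without KO2 and KO4 the count was 14 of 80 by edgeR, beside 6.06% of all genes, with a median log2 difference of 0.29. That fit kept only KO1 and KO3 as knockout libraries, and KO1 was the highest library for 69 of the 80 members. Without KO1 alone the count was 0 of 80, beside 3.17% of all genes. Without KO2 and WT1, which carried adrenal transcripts, the count was 2 of 80, beside 5.31% of all genes, with a median of 0.25.

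**Figure D1:**
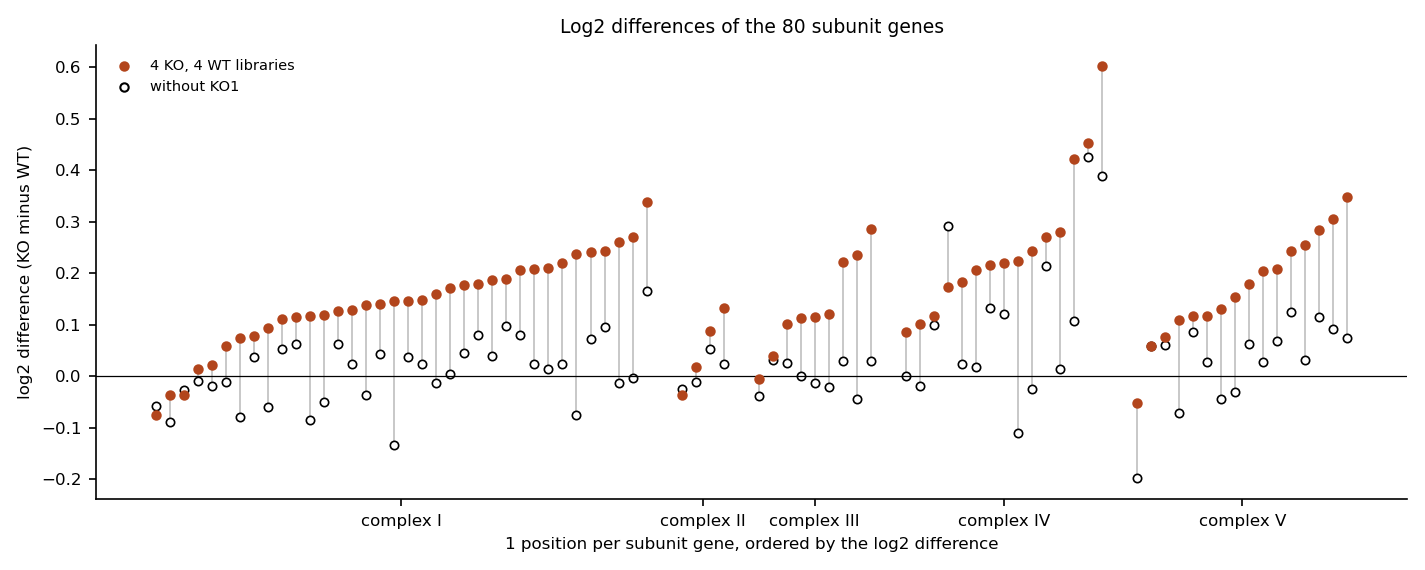
Log2 difference (knockout minus WT by label, vertical axis) of each of the 80 subunit genes, grouped by complex and ordered by size within it; filled points use all 8 libraries and open points leave out KO1. With KO1, 74 points lie above 0, and without it 51 do, so most filled points sit above their open partner.

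The intervals say what was measurable. The median standard error of a member's log2 difference was 0.15, the 95% interval lay within a 1.5-fold change in either direction for 54 of 80 members, and within 1 on the log2 scale for 75 of 80. Groups did not overlap for 1 member that was higher in the knockout libraries, Ndufb6, beside 1.03% of all tested genes, and for 0 members that were lower, beside 0.942% of all tested genes. The median SD of log2 CPM over the 8 libraries was 0.23 for the members and 0.23 for all tested genes.

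KO1 was the highest library for 69 of the 80 members, and for 21.5% of all tested genes. Measured as log2 CPM minus the gene's own mean over the 8 libraries, the median member stood at 0.43, 0.01, 0.02 and -0.15 in KO1 to KO4, and at 0.12, -0.22, -0.04 and -0.14 in WT1 to WT4. In KO1 76 of 80 members were above their own mean, and in WT1 61 of 80. In the other direction 12 of 80 were above it in KO4, 10 in WT2 and 13 in WT4, while between 50.2% and 52.2% of all tested genes were above theirs in each library. The members thus moved together from library to library, with high and low libraries under both labels. WT2 was the lowest library for 35 members and KO4 for 16.

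**Figure D2:**
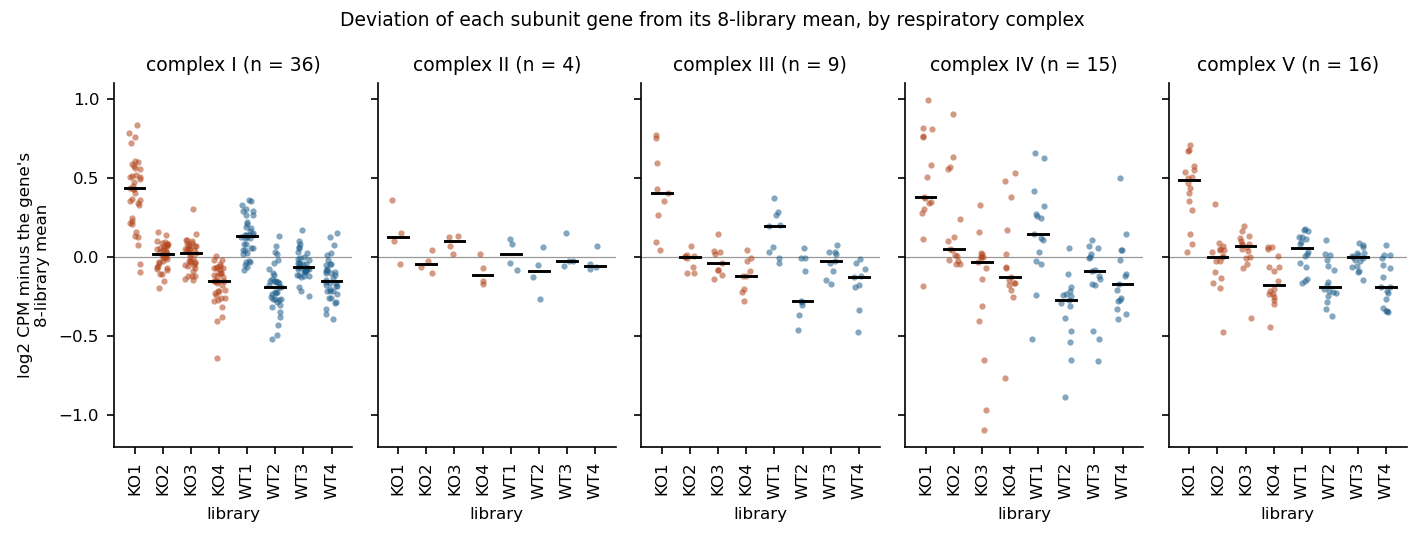
Log2 CPM of each member minus its own 8-library mean (vertical axis) in the 4 knockout (orange) and 4 WT (blue) libraries, 1 panel per complex; points are genes and black bars are medians. In KO1 the medians are 0.44 for complex I, 0.13 for II, 0.40 for III, 0.38 for IV and 0.49 for V, and WT2 and KO4 lie below 0 in every panel.

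Complex I takes electrons from NADH. Its 36 members summed to 8752, 6838, 6883 and 6168 CPM in KO1 to KO4 and to 7433, 6201, 6601 and 6269 CPM in WT1 to WT4. KO1 and then WT1 were highest, and the means of 7160 ± 1110 and 6626 ± 566 CPM overlapped. The log2 difference was above 0 for 33 of 36 members, with a median of 0.15, and for 20 of 36 with a median of 0.02 without KO1.

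Among the subunits that carry the electron path, Ndufv1 binds NADH and flavin, and Ndufs1 holds iron-sulfur clusters. Ndufv1 was at 476.3, 477.8, 443.9 and 422.0 CPM in KO1 to KO4 and 460.3, 496.1, 424.3 and 423.1 CPM in WT1 to WT4 (log2 difference 0.01, SE 0.10). Ndufs1 was at 454.1, 373.0, 435.2 and 379.6 CPM against 406.4, 435.1, 424.8 and 418.6 CPM (log2 difference -0.04, SE 0.10). In both genes the groups overlapped, and KO1 lay only 0.08 and 0.13 above the gene's mean on the log2 scale.

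Ndufa4 had the highest mean count in this group. It is named for complex I but is known as a subunit of complex IV. Its values were 767.5, 526.6, 595.6 and 469.4 CPM in KO1 to KO4 and 649.7, 517.1, 568.4 and 506.7 CPM in WT1 to WT4, so KO1 and WT1 were highest and KO4 lowest (log2 difference 0.07, SE 0.16). Its isoform Ndufa4l2, a target of hypoxia-inducible factor, was at 2.94 to 7.99 CPM, highest in KO1 and lowest in KO4, which is 0.627% to 1.04% of the Ndufa4 count in the same library.

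Ndufb6 (ENSMUSG00000071014, chr4:40270591-40279421 on GRCm38, minus strand), an accessory subunit of the membrane arm, was the member with separate groups. It was at 84.95, 67.75, 67.01 and 67.37 CPM in KO1 to KO4 and at 63.96, 59.97, 62.89 and 64.98 CPM in WT1 to WT4. KO3, the lowest knockout library, stood just above WT4, the highest WT library, and KO1 lay far above the other 3. The log2 difference was 0.19 (SE 0.10, edgeR adjusted p = 0.957), and 0.10 without KO1. Its exons overlap those of Smim27 by 257 bases, and 65.9% of its 50-base words are found in no other annotated gene, so part of its reads may have been set aside or shared.

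Ndufa7, another accessory subunit, had the lowest p in complex I (0.0684 by edgeR, adjusted p = 0.957). It was at 134.2, 96.97, 90.98 and 79.13 CPM in KO1 to KO4 and 95.47, 72.30, 81.40 and 68.34 CPM in WT1 to WT4, a log2 difference of 0.34 (SE 0.17) with overlapping groups. Ndufc2, of the membrane arm, had the widest spread in this complex (SD of log2 CPM 0.43), at 288.2, 167.2, 148.2 and 123.7 CPM against 193.9, 119.3, 181.1 and 122.5 CPM. KO1 alone held it well above the rest, and without KO1 its log2 difference of 0.24 was -0.08.

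Complex II, succinate dehydrogenase, is also an enzyme of the citric acid cycle and has no subunit encoded in mitochondrial DNA. Its 4 genes summed to 2483, 2257, 2440 and 2212 CPM in KO1 to KO4 and 2326, 2238, 2329 and 2311 CPM in WT1 to WT4. These sums stayed close together, with means of 2348 ± 133 and 2301 ± 42.9 CPM. The log2 difference was above 0 in 3 of 4, with a median of 0.05, and in 2 of 4 with a median of 0.006 without KO1.

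Sdha (ENSMUSG00000021577, chr13:74322254-74350280 on GRCm38, minus strand), the flavoprotein that oxidises succinate, was at 945, 936, 989.1 and 991.1 CPM in KO1 to KO4 and 952.2, 1019, 961.6 and 1026 CPM in WT1 to WT4. Its SD of log2 CPM was 0.05, and KO1 was the second lowest library (log2 difference -0.04, SE 0.09). Sdhb, the iron-sulfur subunit, was at 442.2 to 545.8 CPM, with KO4 lowest and KO1 highest (log2 difference 0.09, SE 0.11). Sdhd, a membrane anchor, had the widest spread of the 4 and was at 490.8, 355.1, 400.3 and 363.1 CPM against 412.8, 318.0, 375.5 and 361.3 CPM (log2 difference 0.13, SE 0.13). KO1 and WT1 were its highest libraries.

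Complex III passes electrons from coenzyme Q to cytochrome c. Its 9 members summed to 4166, 3210, 3295 and 3105 CPM in KO1 to KO4 and 3527, 3036, 3219 and 3037 CPM in WT1 to WT4, with means of 3444 ± 488 and 3205 ± 232 CPM. The log2 difference was above 0 in 8 of 9 (median 0.11), and in 5 of 9 without KO1.

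The redox subunits are Cyc1, which is cytochrome c1, and Uqcrfs1, the Rieske iron-sulfur protein. Cyc1 was at 510.3, 427.1, 392.5 and 437.9 CPM in KO1 to KO4 and 444.3, 423.3, 377.3 and 403.0 CPM in WT1 to WT4 (log2 difference 0.10, SE 0.11). Uqcrfs1 was at 745.7, 542.0, 643.1 and 506.2 CPM against 579.3, 547.6, 595.1 and 532.6 CPM (log2 difference 0.11, SE 0.13). In both the groups overlapped and KO1 was highest.

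The large core proteins that face the matrix hardly varied. Uqcrc1 was at 609.0, 594.9, 605.1 and 587.1 CPM in KO1 to KO4 and 575.4, 614.7, 555.9 and 585.7 CPM in WT1 to WT4, with an SD of log2 CPM of 0.05, the smallest of all 80 members, and a log2 difference of 0.04 (SE 0.09). Uqcrc2 was at 558.7 to 640.3 CPM, with KO2 lowest and KO1 highest (log2 difference -0.006, SE 0.09).

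Small subunits of the same complex varied more. Uqcr10 (ENSMUSG00000059534, chr11:4701973-4704342 on GRCm38, minus strand) was at 471.9, 311.2, 304.9 and 287.8 CPM in KO1 to KO4 and 375.9, 226.5, 303.9 and 274.3 CPM in WT1 to WT4 (log2 difference 0.22, SE 0.19). Uqcrb, which lines the quinone pocket, was at 137.4, 81.66, 83.18 and 66.90 CPM against 92.95, 65.73, 85.76 and 58.39 CPM, with the widest spread in the complex (SD of log2 CPM 0.38) and a log2 difference of 0.29 (SE 0.23). KO1 and WT1 were the 2 highest libraries for both genes. A share of 56.6% of the 50-base words of Uqcrb are unique among annotated transcripts, and the processed pseudogene Gm16089 is among the genes that share the rest.

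Complex IV, cytochrome c oxidase, reduces oxygen. The nuclear subunits stabilise and tune a core that mitochondrial DNA encodes, and several exist as tissue isoforms. The 15 members summed to 4585, 3487, 3442 and 3096 CPM in KO1 to KO4 and 3753, 2840, 3227 and 2945 CPM in WT1 to WT4, with means of 3652 ± 646 and 3191 ± 409 CPM. The log2 difference was above 0 for 15 of 15, with a median of 0.22, the largest of the 5 complexes. Without KO1 it was above 0 for 12 of 15 and the median was 0.10.

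Cox4i1 (ENSMUSG00000031818, on chromosome 8), the common isoform of the subunit that binds ATP and slows the enzyme, was the most abundant by count. It was at 1117, 935.4, 858.6 and 815.2 CPM in KO1 to KO4 and 946.9, 737.9, 807.1 and 707.2 CPM in WT1 to WT4, a log2 difference of 0.22 (SE 0.14, edgeR adjusted p = 0.957). KO1, WT1 and KO2 were highest, and the groups overlapped. Cox5a, a matrix-facing subunit that pairs with Cox4i1, was at 238.7, 199.1, 243.3 and 175.2 CPM against 163.5, 160.4, 208.4 and 177.6 CPM (log2 difference 0.27, SE 0.13, edgeR adjusted p = 0.957). It was 1 of 11 members for which KO1 was not the highest library. Here KO3 was highest and WT1 among the lowest. Without KO1 its log2 difference was 0.21.

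Cox6a1 and Cox6b1, whose proteins sit at the contact between the enzyme's monomers, followed the common pattern. Cox6a1, whose promoter is printed above, was at 568.9, 465.1, 501.4 and 412.0 CPM in KO1 to KO4 and 459.6, 379.6, 448.2 and 388.9 CPM in WT1 to WT4 (log2 difference 0.22, SE 0.12). Cox6b1 was at 598.4, 466.1, 463.2 and 400.5 CPM against 497.7, 428.9, 461.9 and 409.8 CPM (log2 difference 0.10, SE 0.13). KO1 was highest and the groups overlapped in both.

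Isoforms restricted to few tissues were detected at low levels, and some followed other libraries. Cox7a1 (ENSMUSG00000074218, chr7:30184144-30186078 on GRCm38, plus strand) was at 25.7, 30.0, 15.2 and 26.3 CPM in KO1 to KO4 and 24.0, 12.8, 14.5 and 19.9 CPM in WT1 to WT4. KO2, KO4, KO1 and WT1 were the highest and the groups overlapped (log2 difference 0.45, SE 0.24, edgeR adjusted p = 0.957). Its common partner Cox7a2 was at 429.1, 278.7, 292.4 and 253.4 CPM against 343.8, 241.7, 263.7 and 237.2 CPM, with KO1 and WT1 highest (log2 difference 0.21, SE 0.18). The Cox7a1 count was 5.20% to 10.8% of the Cox7a2 count in the same library, highest in KO2 and KO4.

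Cox8b (ENSMUSG00000025488, chr7:140898945-140900446 on GRCm38, minus strand) had the widest spread of all 80 members, with an SD of log2 CPM of 0.74. It was at 8.44, 18.1, 4.82 and 13.9 CPM in KO1 to KO4 and 14.9, 5.13, 6.64 and 13.6 CPM in WT1 to WT4 (log2 difference 0.17, SE 0.45). KO2, WT1, KO4 and WT4 were high and the other 4 low, under both labels. Its common partner Cox8a was at 456.3, 364.4, 376.1 and 360.4 CPM against 408.2, 329.0, 341.5 and 388.1 CPM (log2 difference 0.09, SE 0.12), and the Cox8b count was 1.28% to 4.97% of the Cox8a count.

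Ucp1, the uncoupling protein that defines brown fat and is not a kidney tubule gene, was at 36.2, 89.9, 13.0 and 129 CPM in KO1 to KO4 and 104, 24.4, 28.1 and 52.3 CPM in WT1 to WT4. Its 4 highest libraries were the 4 highest for Cox8b. Cidea, a lipid droplet protein of brown fat, was at 28.8, 27.1, 29.4 and 29.8 CPM in these 4 libraries and at 11.3 to 16.4 CPM in the other 4. The split was not shared by Cox7a1, which was higher in KO1 than in WT1 and WT4, or by Ppargc1a, which was lowest in WT4. The brown fat list of 5 genes, which also holds Cox7a1, Cox8b and Ppargc1a, was detected in full. Its summed level ran from 133.6 to 300.3 CPM in the knockout and from 133.6 to 271.8 CPM in the WT libraries. That sum includes Ppargc1a, also a regulator of mitochondrial biogenesis, and the isoforms Cox7a1 and Cox8b, so it is not a separate measure of brown fat. Skeletal muscle, which shares these isoforms, was represented by 1 of 5 markers past the count filter, with creatine kinase Ckm at 0 to 0.134 CPM. The part of brown fat in the Cox7a1 and Cox8b levels was not tested.

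**Figure D3:**
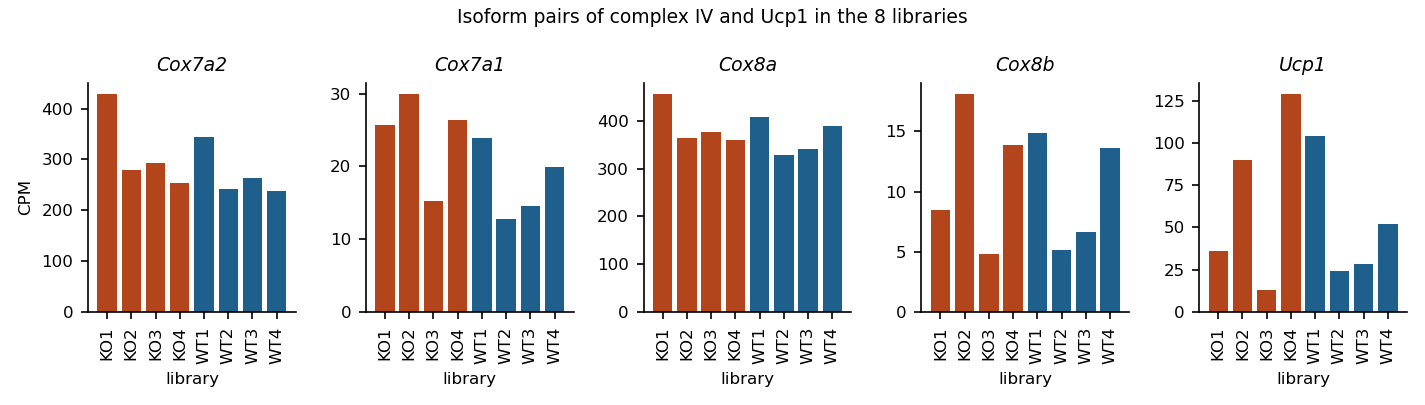
CPM (vertical axis, from 0) of the complex IV isoform pairs Cox7a2 and Cox7a1, Cox8a and Cox8b, and of Ucp1, in each knockout (orange) and WT (blue) library, 1 bar per library. Cox7a2 and Cox8a are highest in KO1, while Cox8b and Ucp1 share KO2, KO4, WT1 and WT4 as their 4 highest libraries.

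The other isoforms were near the count minimum. Cox6b2 (ENSMUSG00000051811, chr7:4751792-4753094 on GRCm38, minus strand), known from testis, was at 5.01, 3.00, 2.23 and 3.94 CPM in KO1 to KO4 and 1.91, 1.88, 2.47 and 3.10 CPM in WT1 to WT4. It had the lowest p of all members, with a log2 difference of 0.60 (SE 0.28, edgeR adjusted p = 0.957) and overlapping groups, from 360 counts in all, against 482 ± 83.3 and 450 ± 38.6 CPM for Cox6b1. Cox4i2, an isoform of lung and of hypoxia, was at 1.46, 1.28, 0.445 and 0.401 CPM against 0.749, 0.814, 0.822 and 0.711 CPM, from 103 counts, and the knockout libraries lay on both sides of the WT libraries. Cox6a2, the muscle partner of Cox6a1, had 49 counts, 21 of them in WT3, and fell outside the rule.

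The count minimum cut between Atp5l, with 96 counts, and Uqcrh-ps2, a pseudogene with 74. Atp5g2 with 60 and Cox6c2 with 50 counts were the next outside. Atp5l, Cox7c and Atp5g1 encode subunits that every ATP synthase or cytochrome oxidase holds, and they too had low counts. Atp5l, subunit g of the ATP synthase, was at 0.510 to 1.33 CPM, where 15.2% of its 50-base words are unique and 14 other annotated genes share the rest, the processed pseudogene Gm10221 among them. Cox7c was at 2.52 to 11.2 CPM with 47.0% of its words unique. Reads with several equally good places were set aside in the authors' counting, so the counts of Atp5l and Cox7c are uncertain as levels. For Atp5g1, at 5.86 to 10.7 CPM, 88.4% of the words are unique. That share is over a principal transcript of 4715 bases, where the members' median is 863 bases. The other words are shared with 366 annotated genes, the processed pseudogene Gm10039 among them, so its count is uncertain as a level too.

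Complex V makes ATP and held 40.1% of the members' summed CPM, against 25.9% for complex I, 12.9% for IV, 12.5% for III and 8.73% for II. Its 16 members summed to 12205, 10468, 11075 and 10473 CPM in KO1 to KO4 and 10057, 10487, 10417 and 10180 CPM in WT1 to WT4, with means of 11055 ± 818 and 10285 ± 201 CPM. KO1 and KO3 were highest, and KO2 and KO4 lay within the WT range. The log2 difference was above 0 in 15 of 16 (median 0.17), and in 12 of 16 (median 0.06) without KO1.

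Atp5a1 and Atp5b encode the alpha and beta subunits of the catalytic head, which bind nucleotide at their contacts. Atp5b (ENSMUSG00000025393, chr10:128083273-128090391 on GRCm38, plus strand) was at 4101, 3952, 4203 and 4163 CPM in KO1 to KO4 and 3577, 4330, 3856 and 4003 CPM in WT1 to WT4 (log2 difference 0.06, SE 0.10). Atp5a1 was at 2991, 2764, 2894 and 2939 CPM against 2541, 2847, 2765 and 2842 CPM (log2 difference 0.08, SE 0.10). WT1, high for most members, was the lowest library for both, and KO1 was not apart from the other 7.

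The peripheral stalk keeps the head from turning. Its subunit OSCP, encoded by Atp5o, had the lowest p in complex V (0.0824 by edgeR, adjusted p = 0.957), at 353.8, 270.3, 271.0 and 250.1 CPM in KO1 to KO4 and 267.9, 220.2, 250.1 and 229.7 CPM in WT1 to WT4 (log2 difference 0.24, SE 0.13). The lowest knockout library equalled WT3 and WT1 lay above it, so the groups overlapped. Atp5h, subunit d of the stalk, was at 153.3, 100.4, 101.3 and 79.06 CPM against 107.9, 78.44, 89.75 and 75.38 CPM (log2 difference 0.31, SE 0.19). Atp5j was at 336.8, 236.4, 229.6 and 197.3 CPM against 257.2, 199.3, 230.4 and 181.2 CPM (log2 difference 0.20, SE 0.17). Its exons overlap those of Gabpa by 397 bases, and 83.7% of its 50-base words are unique among annotated transcripts. All of these stalk genes were highest in KO1. Of the 50-base words, 49.7% are unique among annotated transcripts for Atp5o and 52.1% for Atp5h. The exons of Atp5o overlap those of other annotated genes by 945 bases. The counts of Atp5o and Atp5h are therefore uncertain as levels.

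The members varied with transcript length, and so did other genes. The principal transcript had a median of 863 bases for the members and 3036 bases for the other tested genes. In KO1 the median deviation fell from 0.57 for the 20 members under 600 bases to 0.10 for the 7 members of 2000 bases or more. It was 0.31 for the 18 members from 1200 to below 2000 bases. For other tested genes in the shortest and longest classes it fell from 0.44 to -0.06. WT1 had the same slope at a smaller size, from 0.21 to -0.04 for members and from 0.19 to -0.03 for other genes, and WT2 the opposite slope, from -0.27 to 0.01 and from -0.26 to 0.03. WT4 rose too, from -0.22 to 0.01 for members and from -0.10 to 0.03 for other genes. For members KO4 went from -0.12 to -0.09 and for other genes from -0.17 to 0.04. For members KO2 went from 0.03 to -0.03, KO3 from -0.03 to 0.04 and WT3 from -0.08 to -0.01.

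In KO1 the members lay above the other genes in each of the 5 length classes, by medians of 0.43 against 0.34 from 600 bases, 0.49 against 0.26 from 800 bases and 0.31 against 0.16 from 1200 bases, in the classes between the shortest and the longest. The log2 difference between labels followed the same order. For members its median was 0.22 under 600 bases and 0.02 from 2000 bases, and for other genes 0.11 and -0.02. Under 600 bases 20 of 20 members were above 0, beside 67.3% of the other genes. From 600 bases it was 17 of 17 members, beside 73.15%, and from 800 bases 18 of 18, beside 69.4%. From 1200 bases it was 15 of 18 members, beside 62.7%, and from 2000 bases 4 of 7, beside 45.9%. In a fit with a smooth offset for length, added after the data were seen, the median deviation of the members in KO1 was 0.10 in place of 0.43, with 51 of 80 above 0, and 60 of 80 members had a log2 difference above 0 (median 0.06), beside 48.1% of the genes tested in it.

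**Figure D4:**
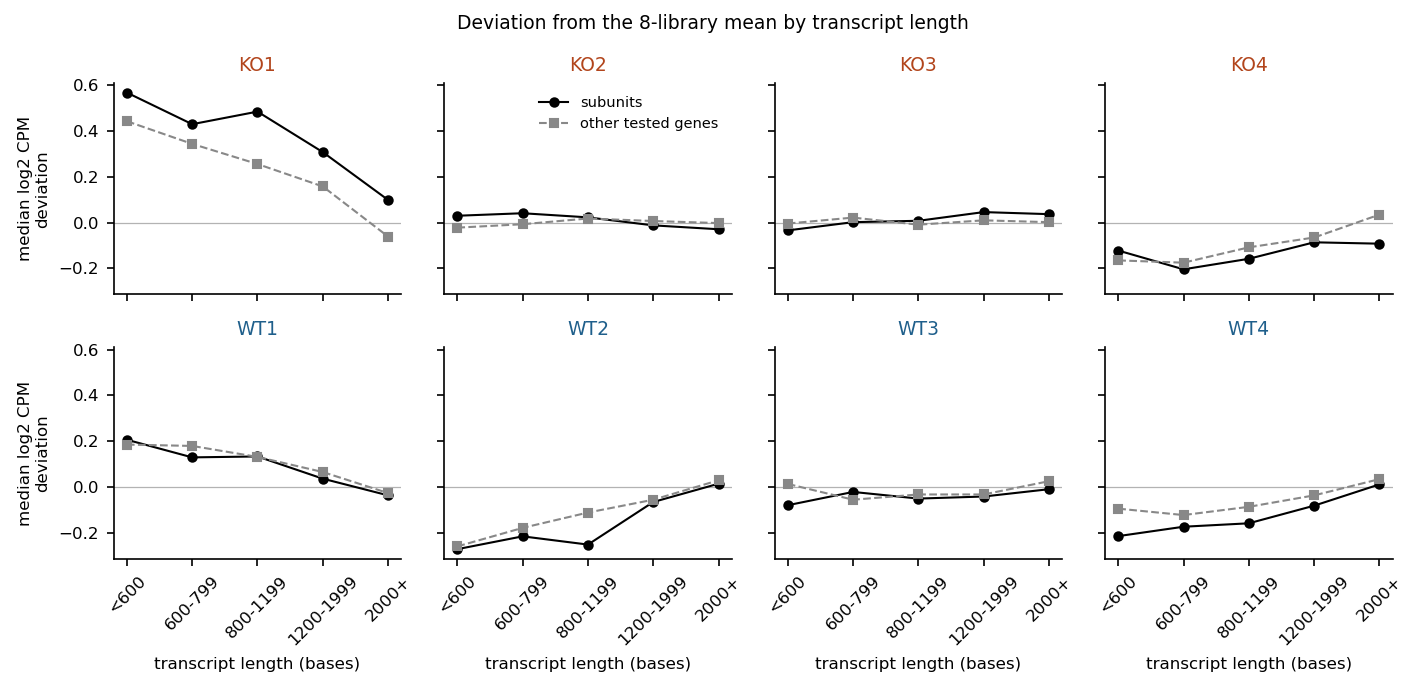
Median log2 CPM deviation from the 8-library mean (vertical axis) in 5 classes of principal transcript length (horizontal axis), 1 panel per library, for the members (black circles) and all other tested genes (grey squares). The lines fall with length in KO1 and WT1 and rise in WT2 and WT4 for both sets of genes, and in KO4 they rise for other genes.

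Per kilobase of principal transcript, which allows genes to be compared, the median member was at 239.8 CPM per kilobase. Atp5b was highest at 2100, followed by Atp5g3 (the c subunit of the proton ring) at 1424, Atp5a1 at 1142, Cox4i1 at 1132 and Ndufa4 at 942.8 CPM per kilobase. The medians by complex were 182.3 for I, 324.8 for II, 317.1 for III, 260.2 for IV and 292.0 CPM per kilobase for V. They were within a factor of 2 with this length only. Atp5g1, which encodes the same mature c subunit as Atp5g3, was at 1.66 CPM per kilobase of a 4715-base principal transcript, a value that depends on that length. With the longest transcript as the length the overall median was 175.2 CPM per kilobase. The medians by complex then ran from 107.7 for IV to 324.8 for II. With all exons merged, the planned length, the overall median was 133.4 CPM per kilobase. The medians by complex then ran from 84.27 for IV to 228.6 for II. Complexes II, III and V were the highest, in that order, with each length, and only I and IV changed places with the length used.

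**Figure D5:**
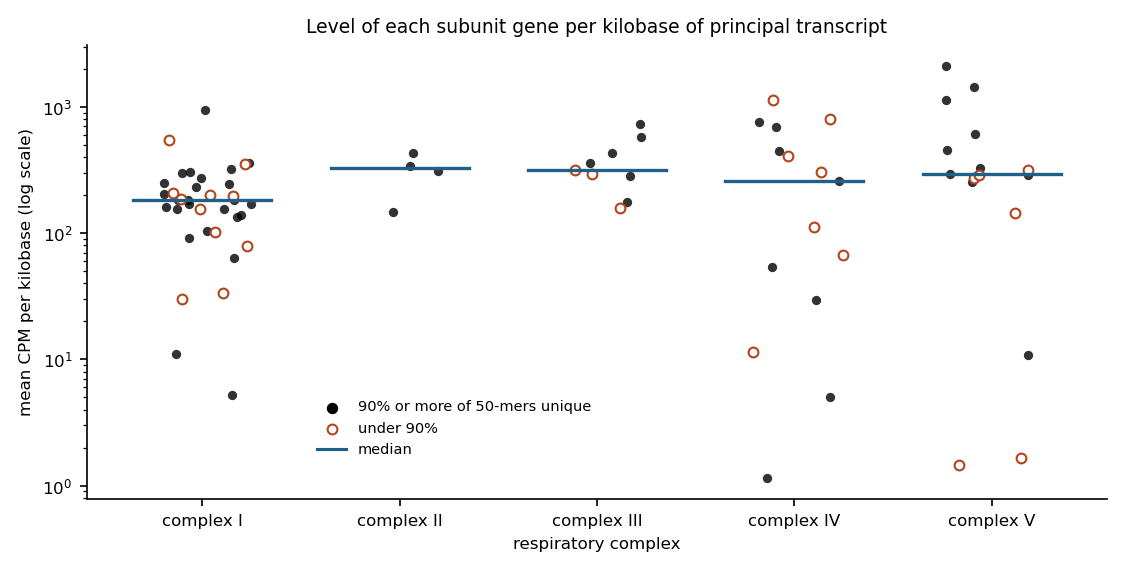
Mean CPM over 8 libraries per kilobase of principal transcript (vertical axis, log scale) for each member by complex; black points have 90% or more of their 50-base words unique among annotated transcripts, open points fewer, and blue bars are medians. Atp5b is highest at 2100 CPM per kilobase, and the lowest point of complex V is Atp5l, with 15.2% of its words unique.

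Genes that act with the subunits were described by lists. All 13 subunit genes of mitochondrial DNA were not analysed here. Of 44 tested assembly factors, 22 had a log2 difference above 0, with a median of 0.002, and their median deviation in KO1 was 0.15. At an unadjusted edgeR p under 0.05 the list had 0 higher and 2 lower, beside 4.00% of all genes in either direction. These were Atpaf1, a chaperone of the ATP synthase beta subunit, at 7.99, 8.996, 8.91 and 9.42 CPM in KO1 to KO4 and 11.3, 10.4, 11.7 and 12.1 CPM in WT1 to WT4 (log2 difference -0.37, SE 0.12), and Acad9, a complex I assembly factor (log2 difference -0.32, SE 0.13). The edgeR adjusted p was 0.957 for each. The Atpaf1 groups did not overlap and those of Acad9 did.

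Citric acid cycle enzymes, which supply the electrons, were even: 8 of 17 had a log2 difference above 0, the median was -0.02, and the median deviation in KO1 was 0.07. Of 17 regulators of mitochondrial biogenesis 6 were above 0 (median -0.03), and 0 were at an unadjusted edgeR p under 0.05. Ppargc1a, the coactivator that drives these genes, was at 98.2, 97.4, 89.3 and 103.8 CPM in KO1 to KO4 and 99.5, 76.3, 92.1 and 75.8 CPM in WT1 to WT4 (log2 difference 0.18, SE 0.11). Esrra, an estrogen-related receptor, was at 78.6 CPM in KO3 and 72.0 CPM in WT3 and at 111 to 174.7 CPM in the other 6 libraries, so its low libraries were 1 of each label.

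Among ribosomal proteins, whose transcripts are short as well, 66 of 82 of the cytosolic ribosome had a log2 difference above 0 (median 0.18), and their median deviation in KO1 was 0.45. For the mitochondrial ribosome 49 of 75 were above 0 (median 0.04), with 0.27 in KO1. The median principal transcript was 964.5 bases for the first list and 1332 bases for the second. For glycolysis 16 of 17 were above 0 (median 0.13), beside 51.3% of all tested genes, and 2 of 17 were at an unadjusted edgeR p under 0.05, beside 4.00% of all tested genes. These were Pfkp (log2 difference 0.47, SE 0.16) and Eno1 (log2 difference 0.40, SE 0.16), each with an edgeR adjusted p of 0.957.

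Ndufs5, the complex I subunit left out by name, was at 6.66, 5.10, 12.4 and 0.735 CPM in KO1 to KO4 and 0.544, 0.250, 0.442 and 0.323 CPM in WT1 to WT4 (log2 difference 3.97, SE 0.76, edgeR adjusted p = 0.957). KO3 was highest, KO4 lay close to the WT libraries, and the groups did not overlap.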

How the data were processed

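RNA of whole kidneys was measured in 8 libraries, 4 labelled knockout and 4 labelled WT, grouped by their titles. The authors deposited whole-number counts of reads per gene, 1 table per library, with no normalization. STAR, HTSeq and edgeR and the build mm9 are named per the submitters' processing notes, and no version or annotation is given in the sources used here. The counting did not use strand, going by the names of the deposited tables, so a gene and an antisense gene that overlaps it cannot be told apart. The 5 lines per table that name no gene were left out of library sizes and tests.

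Identifiers were matched to symbols and positions in GENCODE M21 (GRCm38), and no coordinate was converted. Members were chosen by symbol and a minimum of 80 counts in all. The members, gene lists and tests were chosen with earlier results of these data known. The main test was edgeR 4.0.16 (R 4.3.3), quasi-likelihood, two-sided and robust, with TMM normalization, the default filter (minimum count 10, minimum total 15), genotype as the only term and Benjamini-Hochberg adjustment at 0.05 over 14433 genes. CPM values use TMM-scaled library sizes. Deviations are log2 CPM (prior count 2) minus the gene's own mean over the libraries. SE and 95% intervals come from the same fit. The test was checked on simulated counts. A count of 0 in a library would allow up to 0.223 CPM (3 counts), for counting error only, as PCR copies are not independent molecules.

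Genes named are, per complex, the most abundant by count, the 2 with the lowest p and the member with the widest spread. Every member with separate groups, the catalytic subunits and the tissue isoforms with their partners are named too. For each pathway list the plan held up to 2 genes with the lowest p and the most abundant. Of these, the 2 with the lowest p are named for assembly factors and glycolysis, and not all of the rest. Others named (the neighbours of Ndufb6 and Atp5j, and Atp5j, Atp5g1, Atp5g3, Cox7c, Ppargc1a, Esrra, Ucp1 and Cidea) were chosen after their values were seen. A few genes are not reported here. Transcript length was that of the APPRIS principal transcript, and uniqueness the share of its 50-base words found in no other annotated gene. For the level per kilobase the planned length was that of all exons merged, and the principal transcript was not planned. Alternatives were other normalizations, no filter, DESeq2 1.42.0, limma-voom (limma 3.58.1), a replicate block, each library left out, the libraries with adrenal (KO2, WT1) or heat-shock transcripts (KO2, KO4) left out, and, added after seeing the data, a length offset and a minimum of unique words. Figures were drawn with matplotlib 3.10.9.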

Additional observations from a re-analysis of the deposited data

Results flagged for a closer look

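In 74 groups of 4 libraries looked at, 3 values stood far from the other 3 of their group, and all were KO1: Cox8a at 456.3 CPM, Ndufb6 at 84.95 CPM and Uqcr10 at 471.9 CPM. The gap to the nearest library was 0.836, 0.959 and 0.873 of the group's range. Chance flags about 1 in 20 groups. Many more members were highest in KO1 without standing this far apart.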

How the results depend on the processing

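No alternative gave a member past an adjusted p of 0.05; the smallest was 0.450 (Cox7a1 without KO3). The number of members at an unadjusted p under 0.05 by edgeR was 2 with no filter (beside 3.57% of all genes), 2 without the libraries with adrenal transcripts (5.31%), 14 without those with heat-shock transcripts (6.06%), 1 with the length offset (4.22%), and 0 to 7 over single libraries left out: 7 without KO4 (3.66%), 4 without WT1 (8.53%) and 2 without KO3 (8.53%). The replicate numbers were not taken as pairs: the labels tie them to no litter or day, and same-numbered libraries had correlations of deviations of 0.226, -0.23, 0.282 and 0.293, so 1 of 4 was negative, while 2 of 4 knockout libraries correlated best with their own number. With a replicate block 12 members were at an unadjusted p under 0.05, beside 7.45% of all genes. The level per kilobase was 133.4 with all exons merged, the planned length, 175.2 with the longest and 239.8 with the principal transcript.

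Of 31 named members, 20 kept their direction in all 17 alternatives. Directions changed without the adrenal pair for Cox4i2 (-0.001) and Uqcrc2 (0.040), without the heat-shock pair for Cox8b (-0.597), Ndufs1 (0.077) and Uqcrc2 (0.052), and with the length offset for Cox6b1 (-0.040), Cox8a (-0.052), Ndufa4 (-0.070), Ndufv1 (-0.039) and Uqcrc1 (-0.012). Over single libraries left out, the log2 difference ran from -0.111 to 0.468 for Cox4i2, -0.020 to 0.181 for Cox6b1, -0.079 to 0.169 for Ndufa4, -0.013 to 0.460 for Ndufa4l2, -0.075 to 0.385 for Ndufc2, -0.017 to 0.061 for Ndufv1, -0.150 to 0.429 for Cox8b, -0.089 to 0.004 for Ndufs1 and -0.039 to 0.025 for Uqcrc2. The cause was not tested. A version with words unique in the whole genome was not run, as no genome was given; among annotated transcripts, 53 members had 90% or more unique words, and 48 of these had a log2 difference above 0.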
